A study of Mus musculus with 96 samples.

Results

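The mitochondrial ribosomal protein genes of mouse embryonic stem cells (ESCs) were followed through 7 gene count tables and the WDR5, H3K4me3 and H3K27ac peak lists. A gene was taken as a member when it was annotated as protein-coding and its symbol, looked up from the Ensembl identifier in the tables, was Mrpl or Mrps followed by a number and at most 1 letter from a to c. This gave 76 members of the 37620 genes in the tables, of which 22337 were protein-coding. By symbol, 47 members are Mrpl genes and 29 are Mrps genes, and 44 of the members carry the number of a ribosomal protein that bacteria also have. Counts for the large and the small subunit below group the members by the Mrpl or Mrps symbol alone. Whether each protein is part of the subunit that its symbol names was not checked.

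The mitochondrial ribosome is made in part from RNA that the mitochondrial genome encodes and in part from proteins that are encoded in the nucleus, translated in the cytosol and imported. It translates the few mRNAs of the mitochondrial genome, all of which encode subunits of the respiratory chain and the ATP synthase. Its protein genes are used in nearly every cell type, and their promoters are known for binding sites of NRF1, of ETS factors such as GABP and of YY1. WDR5 is a core subunit of the complexes that methylate histone H3 at lysine 4, and the resulting H3K4me3 marks active gene starts. RYBP is a subunit of variant Polycomb repressive complex 1, whose catalytic subunit is RING1B.

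RNA was measured in 13 groups with 2 libraries each, all of them ESCs. Rybp+/+ cells are R7.15 ESCs with floxed Rybp, and Rybp-/- cells are the same line after 5 µM 4-hydroxytamoxifen (4-OHT) for 4 days. In R1 ESCs an empty vector (shEV) was compared with knockdown of Rybp (shRybp) and of Wdr5 (shWdr5), and the same shEV samples served both comparisons. The rTRS line carries a DOX-induced Rybp_Stat3 integration and was compared with (DOX) and without (NTC) doxycycline. TF-AA mutation ESCs were compared with WT ESCs, both of the R1 line, and the labels do not say which gene carries the mutation. WT.RYBP and RYBP phase disruption ESCs are R7.15 cells of genotype RYBPfl/fl Rosa26::CreERT2. Both were given 4-OHT, and they carry WT RYBP overexpression or RYBP.21aa deletion, respectively. Tet.RYBP ESCs (J1 line, Tet on.RYBP) were compared with DOX and with vehicle. Doses and times are stated for 4-OHT in the Rybp-/- cells, and no label says whether the 2 libraries of a group came from separate cultures, so the p-values measure the spread between these libraries. WDR5, H3K4me3 and H3K27ac were each profiled by chromatin immunoprecipitation in Rybp+/+ and Rybp-/- ESCs with 2 samples per genotype, which had been merged before peaks were called.

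Reads counted on genes ranged from 14512857 to 81049618 per library, of which 49853 to 330320 fell on the members. Of the 76 members, 75 passed the filter on low counts in each of the 7 tables. Mrpl53 had no counts in any library, and 87.1% of its exon bases lie within exons of Ccdc142 on the same strand. A total of 26 members share some exon bases with another gene. Besides Mrpl53, the share was above 25% for Mrps34 (77.8%), Mrps25 (53.7%), Mrps6 (43.8%), Mrpl48 (41.9%), Mrpl19 (36%), Mrps18b (30.5%) and Mrpl24 (26.3%), in several of them with a gene on the opposite strand. The strand setting of the counting is not known, so reads in the shared bases may have been left unassigned or, on opposite strands, cannot be told apart from those of the other gene. All 10 ESC markers (such as Pou5f1 and Nanog) exceeded 1 CPM (the count relative to the scaled library size) in each of the 7 tables.

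The promoters of the members held matches to the motifs named above more often than the promoters of other genes did. In the 300 bases from 250 before to 50 after the annotated gene start, the ETS motif (CCGGAAG, either strand) was found at 27 of 76 members (35.5%), compared with 14.9% of the 15042 protein-coding genes tested in the Rybp knockout table and 10.8% of all protein-coding genes. The NRF1 core (GCGC, then any base, then TGCGC) was found at 11 members (14.5%; 8.56% of the tested protein-coding genes and 6.02% of all), and the YY1 motif (AAGATGGCG) at 7 members (9.21%; 2.6% and 1.84%). The 80 cytosolic ribosomal protein genes had an ETS match in 28.7%, an NRF1 core in 5% and a YY1 match in 5%. An ETS match can end with the AAG that opens a YY1 match. By contrast, the GC box (GGGCGG) was present at 47.4% of the members and 58.6% of the tested genes, the CCAAT box (CCAAT) at 38.2% and 38.1%, the E-box (CACGTG) at 6.58% and 9.56% and the TATA box (TATAAA) at 6.58% and 8.26%. Within the members, ETS matches were present at 14 of 29 small-subunit genes (48.3%) and 13 of 47 large-subunit genes (27.7%). A protein-coding neighbour on the opposite strand started within 1 kb of 16 of 76 members (21.1%, compared with 7.57% of 22380 annotated protein-coding genes, expressed or not). The share among the tested genes, which is the closer background, was not taken. Among the 16 members, Mrps12 is paired with Sars2, the mitochondrial seryl-tRNA synthetase gene. These shares are descriptions and were not tested.

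The starts of 4 members on which the RNA results turn are shown first (mm9, 150 bases before to 30 after the annotated start, written 5′ to 3′ along the gene, with NRF1, ETS and YY1 matches in capitals). Mrpl45 and Mrpl36 had the largest falls after Wdr5 knockdown, and Mrps9 and Mrps31 changed in more comparisons than any other member.
Mrpl45 (chr11:97176880-97177059, plus strand): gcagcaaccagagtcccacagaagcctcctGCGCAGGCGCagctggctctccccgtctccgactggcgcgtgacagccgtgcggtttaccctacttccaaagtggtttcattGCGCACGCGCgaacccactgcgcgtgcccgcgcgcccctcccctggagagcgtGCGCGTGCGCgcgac
Mrpl36 (chr13:73468307-73468486, plus strand): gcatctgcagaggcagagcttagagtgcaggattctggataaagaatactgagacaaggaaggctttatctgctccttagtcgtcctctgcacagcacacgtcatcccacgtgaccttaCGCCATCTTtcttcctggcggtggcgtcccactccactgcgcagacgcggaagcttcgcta
Mrps9 (chr1:42907928-42908107, plus strand): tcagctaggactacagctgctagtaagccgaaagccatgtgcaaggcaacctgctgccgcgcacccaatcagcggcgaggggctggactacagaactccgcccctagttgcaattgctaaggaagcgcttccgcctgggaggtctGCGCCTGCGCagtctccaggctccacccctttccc
Mrps31 (chr8:23521662-23521841, plus strand): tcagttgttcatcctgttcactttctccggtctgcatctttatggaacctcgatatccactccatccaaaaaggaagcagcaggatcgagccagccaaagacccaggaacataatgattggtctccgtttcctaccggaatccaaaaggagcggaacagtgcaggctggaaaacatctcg
Mrpl45 held 3 matches to the NRF1 core, which begin 120 and 38 bases before the start and at the 16th transcribed base, and Mrpl36 held a YY1 match that begins 31 bases before the start. Mrps9 held an NRF1 core beginning 5 bases before the start, and none of the 3 motifs was found in the window of Mrps31.

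The starts of Mrps12 and Mrps21 are shown because no WDR5 peak was found at either of them.
Mrps12 (chr7:29526810-29526989, minus strand): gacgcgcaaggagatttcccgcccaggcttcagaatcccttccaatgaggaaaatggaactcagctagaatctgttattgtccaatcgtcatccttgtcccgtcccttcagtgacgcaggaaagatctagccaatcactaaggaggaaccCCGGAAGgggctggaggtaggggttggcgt
Mrps21 (chr3:95675413-95675592, minus strand): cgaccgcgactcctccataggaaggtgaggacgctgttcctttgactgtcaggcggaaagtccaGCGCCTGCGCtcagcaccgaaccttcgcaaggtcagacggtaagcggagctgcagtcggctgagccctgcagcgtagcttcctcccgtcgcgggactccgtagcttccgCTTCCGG
The ETS match of Mrps12 begins at its first annotated base, and Mrps21 held an NRF1 core 86 bases before the start and an ETS match at the 24th transcribed base.

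The starts of Mrps18a, Mrps18b and Mrps18c, the 3 paralogs of a single bacterial protein, are shown because all 3 held an ETS match shortly before the start while their WDR5 peaks differed.
Mrps18a (chr17:46247785-46247964, plus strand): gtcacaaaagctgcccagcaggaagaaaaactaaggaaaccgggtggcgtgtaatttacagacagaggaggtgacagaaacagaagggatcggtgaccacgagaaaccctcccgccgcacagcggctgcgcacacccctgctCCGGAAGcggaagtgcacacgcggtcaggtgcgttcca
Mrps18b (chr17:36053305-36053484, minus strand): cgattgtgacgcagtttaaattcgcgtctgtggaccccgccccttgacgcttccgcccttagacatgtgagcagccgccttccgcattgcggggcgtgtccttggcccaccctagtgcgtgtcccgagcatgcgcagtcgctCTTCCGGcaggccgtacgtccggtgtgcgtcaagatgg
Mrps18c (chr5:101227496-101227675, plus strand): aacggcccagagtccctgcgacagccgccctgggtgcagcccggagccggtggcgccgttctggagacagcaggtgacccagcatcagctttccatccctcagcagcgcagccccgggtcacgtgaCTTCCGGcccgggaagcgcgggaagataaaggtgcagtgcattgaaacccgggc
The ETS matches begin 8 bases before the start of Mrps18a, 8 before that of Mrps18b and 24 before that of Mrps18c.

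WDR5 peaks were present at most member starts, and H3K4me3 peaks at all of them, in both genotypes. A peak within 1 kb of the gene start was counted, and intervals are 95% Wilson intervals for counting error. WDR5 peaks lay at 62 of 76 members in Rybp+/+ cells (81.6%, 71.4 to 88.7%) and at 64 of 76 in Rybp-/- cells (84.2%, 74.4 to 90.7%). The corresponding shares of the 15042 tested protein-coding genes were 61.9% and 65%. H3K4me3 peaks lay at 76 of 76 members in both genotypes (100%, 95.2 to 100%), compared with 86.5% and 86.7% of the tested genes. H3K27ac peaks lay at 74 of 76 members in both genotypes (97.4%), and the other two, Mrpl47 and Mrpl53, had none in either list. Of the tested genes 68.5% and 71.9% had an H3K27ac peak. The large and small subunits had like shares of WDR5 peaks in Rybp+/+ cells, with 38 of 47 (80.9%) and 24 of 29 (82.8%). Peaks were called on merged samples, so the genotypes cannot be compared against replicate error.

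**Figure D1:**
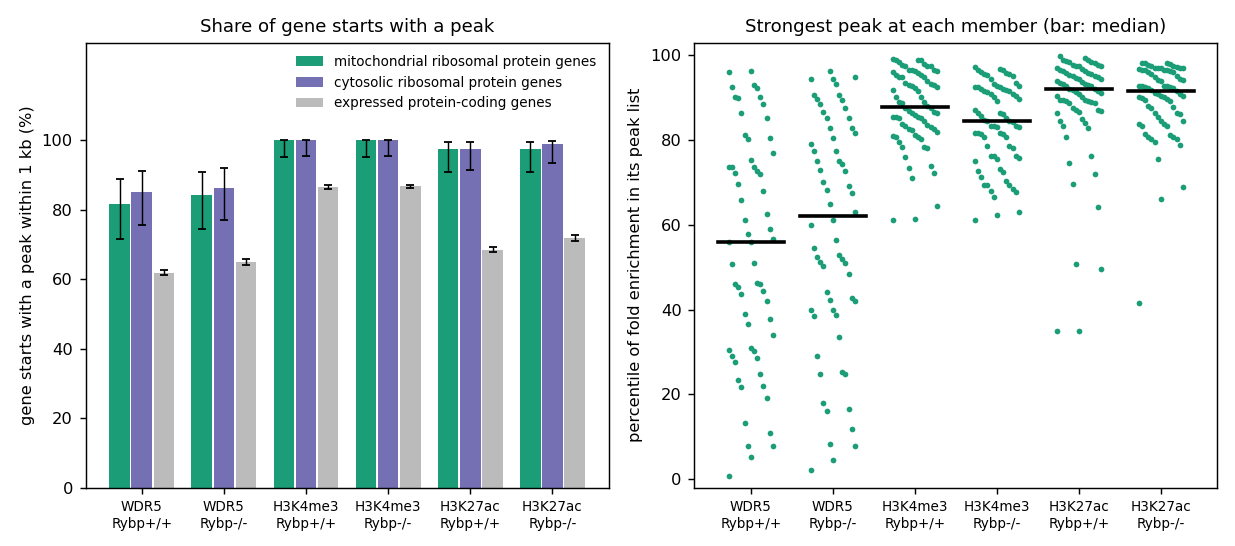
The left panel plots the percentage of gene starts with a peak within 1 kb for the 76 members, 80 cytosolic ribosomal protein genes and 15042 tested protein-coding genes, by antibody and genotype, with 95% Wilson intervals. The right panel plots the percentile of the strongest peak of each member within its own peak list, where the bars mark medians of 56 (Rybp+/+) and 62.2 (Rybp-/-) for WDR5 and of 87.9 and 84.5 for H3K4me3.

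The WDR5 peaks at the members were of middling height and their H3K4me3 peaks high, as at protein-coding genes in general. Over all protein-coding genes with a peak in both genotypes, the medians in Rybp+/+ cells were at the 59.5th percentile for WDR5 and the 82.6th for H3K4me3. In Rybp+/+ cells the strongest WDR5 peak per member had a median fold enrichment of 5.56 (range 2.5 to 22.3), which is the 56th percentile of all WDR5 peaks. Mrpl18 (22.3-fold, 96.4th percentile) and Mrpl34 (21.2-fold, 96.1st percentile) had the highest WDR5 peaks, while Mrps6 (2.5-fold, 0.811th percentile) had the lowest. The summit of the Mrpl34 peak lay at -1263 bases from the annotated start (minus is upstream), outside the 1 kb window. At the 80 cytosolic ribosomal protein genes, by comparison, 68 starts (85%) had a WDR5 peak in Rybp+/+ cells, and over the 68 with a peak in both genotypes the median fold enrichment was 32.1 (98.3rd percentile). The member H3K4me3 peaks had a median fold enrichment of 41.5 (range 12.4 to 64.4, 87.9th percentile). The 59 members with a WDR5 peak in both genotypes had a median change in percentile of 4.21 from Rybp+/+ to Rybp-/-, and 24 of them (40.7%) ranked lower in Rybp-/-, compared with 0.992 and 45.9% over 9200 protein-coding genes. For H3K4me3 the median change over the 76 members was -3.41 percentile points, and 48 (63.2%) ranked lower, compared with -0.531 and 52.9% over 14143 protein-coding genes. Summits of the member WDR5 peaks lay at a median of 86 bases after the annotated start in Rybp+/+ cells, and those of H3K4me3 at 248.5 bases after it.

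WDR5 peaks were listed at 59 members in both genotypes, at 3 in Rybp+/+ cells alone, at 5 in Rybp-/- cells alone and at 9 in neither. Those in Rybp+/+ alone were Mrpl15, Mrpl36 and Mrps31, and those in Rybp-/- alone were Mrpl11, Mrpl22, Mrpl55, Mrps18a and Mrps22. The members without a WDR5 peak in either list were Mrpl1, Mrpl33, Mrpl35, Mrpl47, Mrpl49, Mrpl53, Mrps12, Mrps21 and Mrps24. Each of these 9 nevertheless had an H3K4me3 peak, such as that at Mrps12 (23.3-fold in Rybp+/+ and 24.3-fold in Rybp-/- cells). The peaks present in a single genotype ranged from the Mrpl22 peak in Rybp-/- cells (2.91-fold, 4.62nd percentile) to the Mrps18a peak in Rybp-/- cells (6.02-fold, 63.2nd percentile). The paralogs of Mrps18a differed from it, with WDR5 peaks in both genotypes at Mrps18b (15.8-fold and 13.5-fold) and Mrps18c (5.74-fold and 7.91-fold).

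At Mrps6, which encodes a small-subunit protein with a bacterial counterpart, the WDR5 peak (chr16:92058264-92059079 in Rybp+/+ cells, mm9) rose from 2.5-fold to 6.19-fold enrichment and from the 0.811th to the 64.9th percentile, a difference of 64.1 percentile points that no other member reached. Its H3K4me3 peak went from 30.5-fold (78.4th percentile) to 53.2-fold (94.4th). At Mrps31 the WDR5 peak of Rybp+/+ cells (chr8:23521810-23522140, 4.83-fold) was not listed in Rybp-/- cells, and the H3K4me3 peak went from 63-fold (98.9th percentile) to 40.3-fold (85.1st). Among the 59 members with a WDR5 peak in both lists, Mrps2 had the largest loss in WDR5 rank, of -43.2 percentile points. Among all 76 members Mrpl13 had the largest loss in H3K4me3 rank, of -25.1 percentile points. These are single values per genotype with no replicate error.

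**Figure D2:**
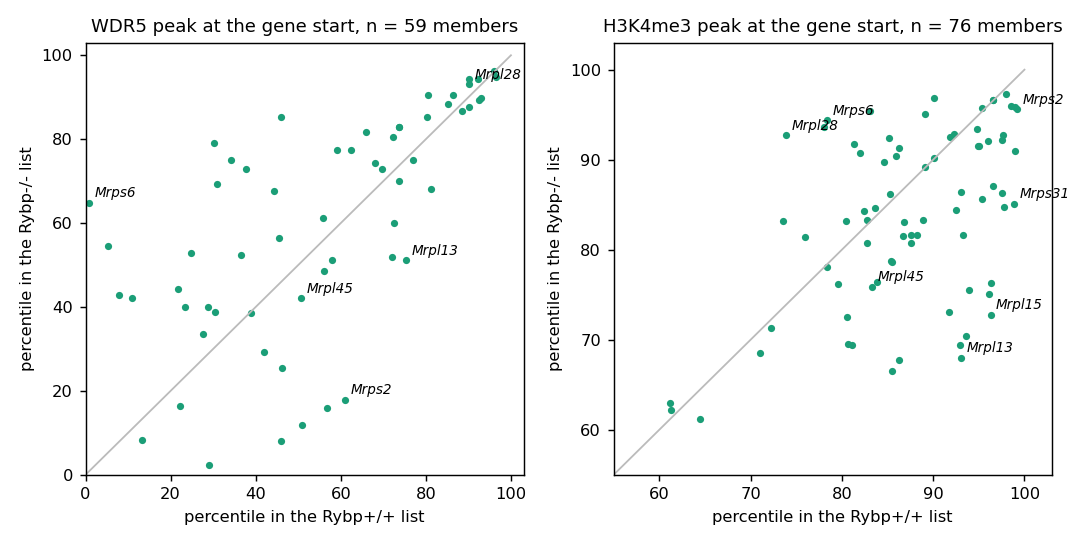
Each point is a member, plotted by the percentile of its strongest peak in the Rybp+/+ list (x axis) and in the Rybp-/- list (y axis), for 59 members with WDR5 peaks in both and for 76 with H3K4me3 peaks in both; the line marks equal rank. Mrps6 lies farthest above the line for WDR5, and 48 of 76 members lie below it for H3K4me3.

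Per kilobase of gene model, the members spanned a wide range of RNA levels. In Rybp+/+ cells Mrpl42 was highest, with 139 and 134 CPM per kb in the 2 libraries, followed by Mrpl52 (111 and 117) and Mrps16 (99 and 94.7), and these ranges did not overlap. Mrpl11 (95.1 and 93.5) overlapped Mrps16. The median member lay at 26.8 CPM per kb, and Mrpl48 was lowest with 5.09 and 5.13, below Mrps10 (5.62 and 5.82). Mrpl42 held the top rank among the control libraries of all 7 tables. Mrpl33, Mrps25 and Mrpl48 were between rank 71 and rank 75 of 75 in every table, and for Mrpl48 and Mrps25 41.9% and 53.7% of the exon bases are shared with other genes.

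Loss of RYBP in R7.15 ESCs was accompanied by small changes in the members, most of them upward. Rybp itself was at 110 and 110 CPM in Rybp+/+ and at 24.8 and 25 CPM in Rybp-/- cells (log2 fold change -2.15). At an adjusted p under 0.05 in edgeR's quasi-likelihood test, 22 of 75 members were higher and 7 lower in Rybp-/- cells (29 in all), while 22.8% of all 16955 genes tested were called higher and 22.7% lower (45.5% in all). The members' shares were 29.3% and 9.33%. Both Rybp-/- libraries lay above both Rybp+/+ libraries for 31 members (35.8% of all genes) and below for 19 (35.1%). The median log2 fold change of the members was 0.046, compared with 0.002 over all genes, and they ranged from -0.15 to 0.40. No member changed by more than 0.5 on the log2 scale in either direction, when 11.3% of all genes were called higher and 5.27% lower beyond that size. With library totals in place of TMM factors 28 members were higher and 2 lower. With DESeq2 the calls were 14 higher and 2 lower, and without Rybp-/- replicate 2 they were 13 higher and 0 lower. The 7 fibroblast markers summed to 56.1 to 56.6 CPM in Rybp+/+ and to 115 to 121 CPM in Rybp-/- cells, and their part in the result was not tested.

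Mrps6 rose most after RYBP loss. It was at 13.6 and 13.6 CPM in Rybp+/+ and at 17.6 and 18.2 CPM in Rybp-/- cells, with no overlap (log2 fold change 0.40 ± 0.08 SE, adjusted p = 6e-05). Mrpl52, a large-subunit protein, went from 45.6 and 48.1 to 61.4 and 58.8 CPM (0.36 ± 0.05, adjusted p = 2.4e-07). Mrpl27, the counterpart of a bacterial protein at the peptidyl transferase centre, went from 20.2 and 20.2 to 24.9 and 24.8 CPM (0.30 ± 0.07, adjusted p = 0.00032). The largest falls were those of Mrps24, Mrps21 and Mrps31, with log2 fold changes of -0.15, -0.15 and -0.13. Their levels in Rybp-/- cells were 89.9, 90.4 and 91.5% of those in Rybp+/+ cells. DESeq2 called neither Mrps24 nor Mrps31. Over the 75 tested members, the log2 fold change and the change in H3K4me3 percentile had a Pearson correlation of 0.12 (Spearman 0.05), and over the 59 members with WDR5 peaks in both genotypes that with the WDR5 percentile was 0.08 by either measure. The points of these correlations share libraries, and the values are descriptions.

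Knockdown of Rybp in R1 ESCs was accompanied by lower levels of most members. Rybp was at 85.7 and 86.4 CPM with shEV and at 35.8 and 36.6 CPM with shRybp (log2 fold change -1.25). Wdr5 was lower with shRybp as well (372 and 364 to 265 and 260 CPM, -0.49, adjusted p = 2.7e-08). Of 75 members, 50 were lower and 1 was higher in shRybp cells, when 26.0% and 26.8% of all 16538 genes tested were called lower and higher (52.7% in all). The members' shares were 66.7% and 1.33%. In 57 of 75 members both shRybp libraries lay below both shEV libraries, compared with 36.4% of all genes, and in 5 they lay above (39.2%). The median member changed by -0.26 on the log2 scale, with a range of -0.66 to 0.23. The large subunit (31 of 46 lower, median -0.274) and the small subunit (19 of 29 lower, median -0.239) had like medians. The scaling of the libraries bears on this count. The TMM factors were 0.949 and 0.944 for shEV and 1.06 for both shRybp libraries, and with library totals alone the median of all genes shifted from 0.018 to 0.176, 71.2% of all calls were upward in place of 50.8%, and 25 members were lower and 12 higher. Relative to the median of all genes, the median member was at -0.276 with TMM factors and at -0.275 with library totals. The summed level of the trophectoderm markers was 9.73 to 10.4 CPM with shEV and 82.1 to 87.6 CPM with shRybp, mainly from Krt18. On the same scale of library totals the 10 ESC markers summed to 8610 to 8850 CPM with shEV and to 8200 to 8240 CPM with shRybp, without overlap. The fibroblast markers summed to 17.7 to 17.8 and to 32.4 to 33.7 CPM, the primitive endoderm markers to 12.7 to 15.7 and to 21.9 CPM and the neural markers to 291 to 302 and to 241 to 244 CPM. Single markers went against the sum of their list. Nes rose (13.55 and 14.5 to 43.7 and 47.8 CPM) while Tubb3 fell (272 and 282 to 195 and 192 CPM). Sox7 fell (6.86 and 6.83 to 5.85 and 4.31 CPM). Of the ESC markers, Nanog rose (526 and 530 to 685 and 688 CPM), as did Klf4, Tdgf1 and Dppa5a. The part of the markers in the result was not tested.

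Mrpl30, the counterpart of a bacterial large-subunit protein, fell most after Rybp knockdown. It was at 74.4 and 73 CPM with shEV and at 47.6 and 45.4 CPM with shRybp, which is 63.1% of the control level (log2 fold change -0.66 ± 0.06 SE, adjusted p = 2.9e-08). Mrpl41 went from 27.2 and 24.5 to 17.4 and 17.1 CPM (-0.58 ± 0.09, adjusted p = 1.9e-05). Mrpl12, which forms the flexible stalk that recruits translation factors, went from 82.6 and 78.9 to 56.5 and 53.8 CPM (-0.55 ± 0.06, adjusted p = 2.7e-07). For each of these 3 genes the groups were far apart compared with the difference between replicates. The member called higher was Mrpl33, at 45.1 and 39.4 CPM with shEV and 52.4 and 46.4 CPM with shRybp (0.23 ± 0.08, adjusted p = 0.02), and DESeq2 did not call it. A log2 change beyond 0.5 was reached by 7 members, all of them lower, when 7.84% of all genes were called lower and 18.3% higher by that rule.

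Knockdown of Wdr5 moved the members in both directions, and its largest effects exceeded those of Rybp knockdown. These values rest on the same shEV samples as the Rybp knockdown, read from another table (21241931 and 19731613 counts on genes, compared with 41697967 and 38961268), so the comparisons are not independent. Wdr5 was at 350 and 343 CPM with shEV and at 60 and 58.2 CPM with shWdr5 (log2 fold change -2.55). Rybp was higher with shWdr5 (79.9 and 81.3 to 121 and 117 CPM, 0.56, adjusted p = 3.8e-09). Of 75 members, 36 were lower and 12 higher in shWdr5 cells, when 31.5% of all 15143 genes tested were called in each direction (63.0% in all). The members' shares were 48% lower and 16% higher. Both shWdr5 libraries lay below both shEV libraries for 47 members (40.8% of all genes) and above for 17 (40.2%). Beyond 0.5 on the log2 scale 9 members were lower (17.5% of all genes) and 1 was higher (19.4%). The median member changed by -0.16 on the log2 scale (all genes -0.007), and the range ran from -1.07 to 0.65. The small subunit had 8 higher and 14 lower of 29, and the large subunit 4 higher and 22 lower of 46. The split between the subunits was not tested. With DESeq2, 9 members were higher and 24 lower. The 10 ESC markers summed to 8600 to 8830 CPM with shEV and to 7030 to 7110 CPM with shWdr5. The 5 primitive endoderm markers summed to 13.2 to 16.2 and to 32.1 to 32.2 CPM, and the 3 neural markers to 291 to 302 and to 173 to 184 CPM. Within these lists Sox7 fell (6.83 and 6.84 to 1.91 and 2.15 CPM) and Nes rose (13.7 and 14.5 to 16.2 and 16.8 CPM). The trophectoderm markers summed to 9.68 to 10.6 and to 16.6 to 19.4 CPM. The fibroblast markers summed to 18.1 to 18.3 and to 15.3 to 15.6 CPM, and the mesoderm markers to 15.1 to 17.6 and to 12.2 to 13.9 CPM. The part of the markers in the result was not tested.

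Mrpl45, a large-subunit protein at the exit of the nascent chain that holds the ribosome at the inner membrane, fell most. It was at 93.5 and 89.9 CPM with shEV and at 40.8 and 46.5 CPM with shWdr5, which is 47.6% of the control level (log2 fold change -1.07 ± 0.06 SE, adjusted p = 1.4e-12). Its WDR5 peak in Rybp+/+ cells covers the NRF1 cores printed above (chr11:97176874-97177134) and was 5.2-fold enriched. Mrpl36 was at 41.6 and 42.3 CPM with shEV and at 20.5 and 22.4 CPM with shWdr5 (-0.97 ± 0.08, adjusted p = 2.4e-10), and its WDR5 peak was among the lowest (3.25-fold, 7.92th percentile). Mrpl46 went from 39.9 and 36 to 22.4 and 21.9 CPM (-0.78 ± 0.08, adjusted p = 1.6e-08), and 12.4% of its exon bases lie opposite exons of Mrps11. Mrps6 rose most, from 13.2 and 13.1 to 19.7 and 21.6 CPM (0.65 ± 0.10, adjusted p = 5.1e-06). Mrps28 (0.43 ± 0.07, adjusted p = 5.5e-06) and Mrps2 (0.38 ± 0.05, adjusted p = 1.2e-06) followed, at 135 and 131% of their control levels. Lower members were found with and without a WDR5 peak at the start. Among the 62 members with a WDR5 peak in Rybp+/+ cells 27 were lower and 11 higher (median -0.107), and among the 13 tested members without a peak 9 were lower and 1 higher (median -0.213). Over the 62 members with a peak, log2 fold enrichment and log2 fold change had a Pearson correlation of 0.06 and a Spearman correlation of 0.08. The peaks and the knockdown come from different ESC lines.

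**Figure D3:**
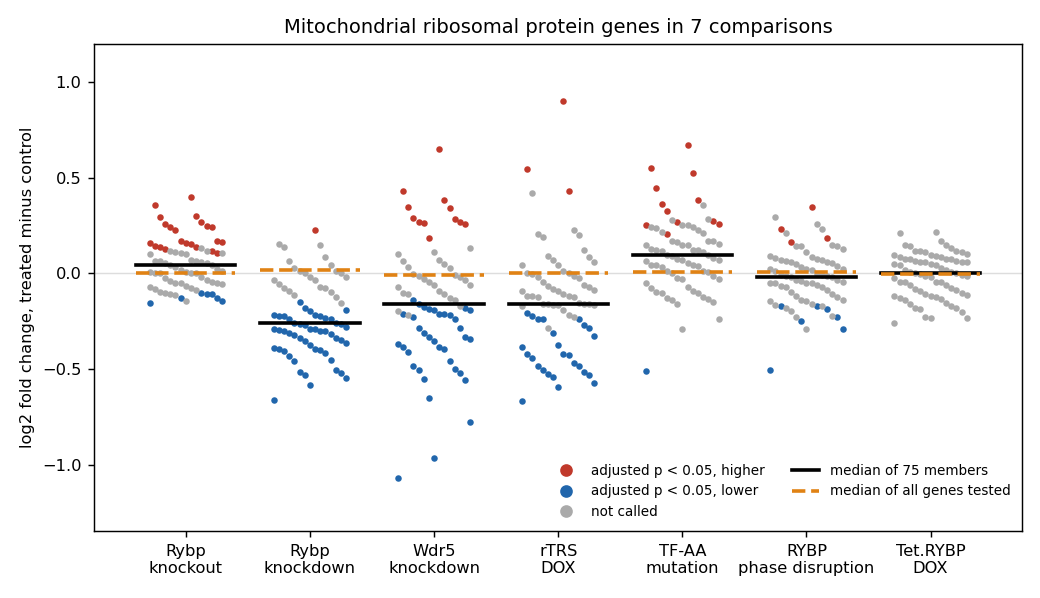
Each point is 1 of the 75 tested members, plotted by its log2 fold change (treated minus control) in each of the 7 comparisons and coloured by the call at an adjusted p under 0.05; black bars mark the median of the members and dashed bars that of all genes tested. The member median lies at -0.258 after Rybp knockdown, -0.16 after Wdr5 knockdown and -0.159 in the rTRS libraries labelled DOX, and within 0.1 of 0 in the other 4 comparisons.

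In the rTRS line most members that changed were lower in the libraries labelled DOX. Of the genes named in the label, Stat3 was slightly higher in these libraries and Rybp was not. Rybp was at 113 and 110 CPM in the NTC libraries and at 102 and 99.8 CPM in the libraries labelled DOX (log2 fold change -0.15, adjusted p = 0.076), and Stat3 at 159 and 172 and at 191 and 188 CPM (0.20, adjusted p = 0.026). Whether a transgene transcript would be counted on these genes was not tested. The column of DOX replicate 2 carries another prefix in the table than the other 3 rTRS columns and was assigned by the rest of its name. Of 75 members, 26 were lower and 3 higher in the libraries labelled DOX, when 20.4% of all 16291 genes tested were called lower and 23.0% higher (43.4% in all). The share of members called lower was 34.7% and that called higher 4%. Both libraries labelled DOX lay below both NTC libraries for 40 members (35.1% of all genes) and above for 7 (36.2%). Beyond 0.5 on the log2 scale 8 members were lower (10.0% of all genes) and 2 higher (14.7%). The median member changed by -0.16 on the log2 scale (all genes 0.004), by -0.095 without NTC replicate 1 and by -0.101 without DOX replicate 2. Other markers moved with these libraries as well. The 10 ESC markers summed to 6470 to 6740 CPM in the NTC libraries and to 4110 to 4310 CPM in those labelled DOX, the 4 trophectoderm markers to 49.8 to 55.4 and to 360 to 400 CPM, chiefly Krt18, and the 4 mesoderm markers to 11.9 to 13.9 and to 57.9 to 62.5 CPM. The 3 neural markers summed to 135 to 145 and to 77.2 to 83.1 CPM, although Nes rose within them (17.7 and 14.1 to 47.9 and 46.2 CPM). The 5 primitive endoderm markers summed to 3.73 to 3.87 and to 2.56 to 2.86 CPM. The part of these markers in the result was not tested, and in bulk samples fewer cells of a type and less RNA per cell cannot be told apart.

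Mrpl1, the counterpart of the mobile stalk protein L1 of bacteria, fell most among these libraries. It was at 73.4 and 77.8 CPM in NTC and at 42.7 and 52.6 CPM in the libraries labelled DOX, which is 63% of the control level (log2 fold change -0.67 ± 0.09 SE, adjusted p = 9.7e-05). Mrpl35 (-0.60 ± 0.07, adjusted p = 3e-05) and Mrps14 (-0.58 ± 0.08, adjusted p = 8.8e-05) fell to 66.1 and 67.1% of their control levels. Mrps21 was higher, at 16 and 11.7 CPM in NTC and at 30.2 and 21.4 CPM in the libraries labelled DOX (0.90 ± 0.17, adjusted p = 0.00086). Its replicates differed more from each other than those of the falling genes, although the groups did not overlap. Mrpl54 went from 29.7 and 23.7 to 43.3 and 34.6 CPM (0.55 ± 0.13, adjusted p = 0.0033). Mrps18a was also higher (0.43 ± 0.12, adjusted p = 0.0091), whereas its paralog Mrps18b was lower (-0.54 ± 0.08, adjusted p = 0.00019).

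TF-AA mutation ESCs differed from WT ESCs in few members, nearly all of them higher in the mutant. Of 75 members 12 were higher and 1 was lower, when 14.4% and 16.1% of all 14456 genes tested were called in these directions (30.5% in all). The share of members called higher was 16%. With library totals 18 members were higher and 1 lower (54.8% of all calls upward in place of 47.3%). Both TF-AA mutation libraries lay above both WT libraries for 35 members (32.3% of all genes) and below for 11 (31.4%). Beyond 0.5 on the log2 scale 3 members were higher (9.82% of all genes) and 1 was lower (7.49%). The median member changed by 0.10 on the log2 scale (0.098, all genes 0.007), by 0.151 without WT ESC replicate 1 and by 0.057 without WT ESC replicate 2. The 7 fibroblast markers summed to 10.8 to 11.5 CPM in WT and to 24.3 to 25 CPM in TF-AA mutation cells, and the 5 primitive endoderm markers to 8.84 to 9.36 and to 15.6 to 15.9 CPM, and their part was not tested. Rybp was not called different (122 and 139 CPM in WT and 112 and 118 CPM in mutant cells, adjusted p = 0.096). The count depended on single libraries, and was 21 called members without WT ESC replicate 1, 7 without TF-AA mutation replicate 1 and 6 without TF-AA mutation replicate 2. With the replicate number as a block it was 23 (21 higher and 2 lower), when 5525 of all 14456 genes were called. Mrps9, the counterpart of a bacterial small-subunit protein, was the member that fell. It was at 98.4 and 95.3 CPM in WT and at 68.5 and 67.6 CPM in TF-AA mutation cells (log2 fold change -0.51 ± 0.08 SE, adjusted p = 3.7e-05), and it was called under each alternative tried. Mrpl52 rose most (0.67 ± 0.16, adjusted p = 0.0022), but its WT libraries were far apart, at 30 and 16.5 CPM compared with 37.1 and 36.9 CPM in the mutant, and DESeq2 did not call it. Mrpl23, the counterpart of a bacterial protein at the exit tunnel, went from 20.4 and 16.9 to 25.3 and 29.5 CPM (0.55 ± 0.12, adjusted p = 0.0011). Mrps11, a platform protein of the small subunit, went from 18.7 and 17.5 to 25.8 and 26.2 CPM (0.52 ± 0.11, adjusted p = 0.00097).

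RYBP phase disruption cells differed from WT.RYBP cells in few members. Rybp was high in both groups (749 and 753 CPM with WT RYBP, 662 and 626 CPM with RYBP.21aa deletion). Of 75 members, 4 were higher and 7 lower, when 16.1% and 17.0% of all 14575 genes tested were called in these directions (33.0% in all), so the shares of members, 5.33% and 9.33%, lay below those of all genes. Both RYBP phase disruption libraries lay below both WT.RYBP libraries for 23 members (32.1% of all genes) and above for 14 (32.8%). Beyond 0.5 on the log2 scale 1 member was lower (4.80% of all genes) and none higher (9.36%). The median member changed by -0.02 (-0.021 on the log2 scale, all genes 0.005). The balance of directions changed with the scaling, since library totals alone gave 7 higher and 2 lower members, and 61.7% of all calls were upward in place of 48.7%. DESeq2 called 0 higher and 2 lower, and 3 members were called without WT.RYBP replicate 2 and 7 without RYBP phase disruption replicate 1. Mrps31, a small-subunit protein, stood out. It was at 64.1 and 57.8 CPM in WT.RYBP and at 40.7 and 45 CPM in RYBP phase disruption cells, which is 70.4% of the control level (log2 fold change -0.51 ± 0.08 SE, adjusted p = 3.5e-06). Mrpl50 fell from 98.5 and 91.1 to 76.1 and 78.9 CPM (-0.29 ± 0.06, adjusted p = 0.00044). The 7 fibroblast markers summed to 416 to 423 CPM in WT.RYBP and to 348 to 374 CPM in RYBP phase disruption cells, the 4 mesoderm markers to 29.8 to 31.2 and to 18.9 to 19.1 CPM, and the 4 trophectoderm markers to 90.3 to 93.9 and to 117 CPM. Their part was not tested. The remaining calls, such as Mrpl23 (0.34, adjusted p = 0.0073), Mrps23 (0.23, adjusted p = 0.012), Mrps2 (0.19, adjusted p = 0.019) and Mrps35 (-0.25, adjusted p = 0.033), were all lost with DESeq2.

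Induction of RYBP alone in J1 ESCs left no member called. Rybp rose from 135 and 145 CPM with vehicle to 522 and 535 CPM with DOX (log2 fold change 1.91). With edgeR 0 of 75 members passed the threshold, when 3.63% of all 14937 genes tested were called higher and 2.39% lower (6.02% in all), and DESeq2 also called 0. None changed by more than 0.5 on the log2 scale, when 1.39% of all genes were called higher and 1.10% lower by that rule. Both DOX libraries lay above both vehicle libraries for 18 members (23.9% of all genes) and below for 21 (24.2%). Without vehicle replicate 1 there were 3 calls, and without vehicle replicate 2 there were 2. An unadjusted p under 0.05 was reached by 5 members, and the lowest adjusted p was 0.065, for Mrpl1 (log2 fold change -0.26). The median member changed by 0.001, and the range ran from -0.26 to 0.22.

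Across the 7 comparisons, Mrps31 and Mrps9 were called in 5, and 9 further members in 4. Of the members 14.7% were called in at least 4 comparisons and 2.67% in at least 5, beside 36.3 and 17.1% of the 13126 genes tested in all 7 tables. The difference between these shares was not tested. Mrpl9 and Mrps10 were tested in all 7 and called in none. The comparisons of shRybp and shWdr5 share controls, so the counts per member are not independent. Mrps31 was lower in Rybp-/- cells, after Rybp knockdown (62.4 and 61.4 to 49.1 and 47.2 CPM), in the rTRS libraries labelled DOX (83.6 and 80.7 to 67.1 and 67.7 CPM) and with RYBP phase disruption. After Wdr5 knockdown, however, it was higher (58.6 and 57.7 to 70.6 and 71.1 CPM, log2 fold change 0.29 ± 0.06 SE, adjusted p = 0.00019). Mrps9 was higher in Rybp-/- cells (58.4 and 56.4 to 61.3 and 63.9 CPM, 0.13 ± 0.05, adjusted p = 0.025) and lower in the other 4 comparisons in which it was called. These included Wdr5 knockdown, with 101 and 96.8 CPM for shEV and 69.4 and 70.8 CPM for shWdr5 (-0.50 ± 0.06, adjusted p = 4.6e-08).

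**Figure D4:**
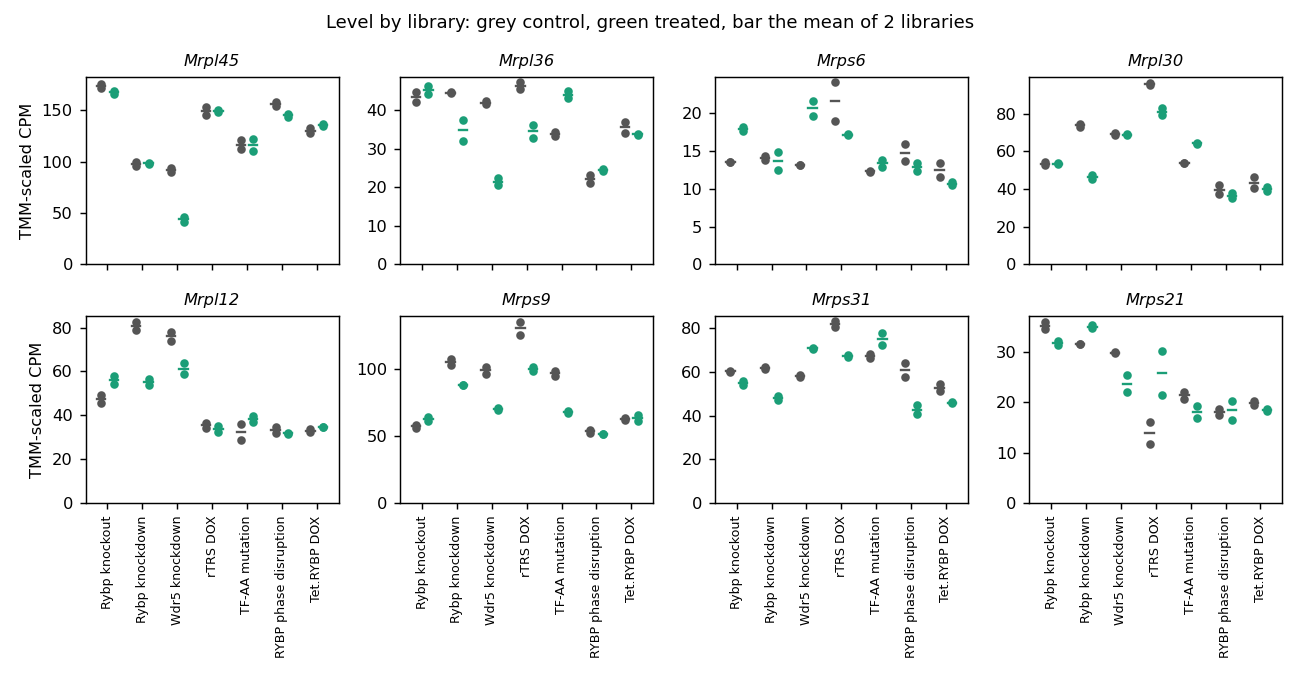
TMM-scaled CPM of 8 members in every library of the 7 tables, with control libraries in grey, treated libraries in green and a bar at the mean of the 2 libraries. Mrpl45 drops to 40.8 and 46.5 CPM in the shWdr5 libraries, and the shEV libraries appear in both knockdown comparisons.

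Members chosen for known roles differed in direction between comparisons. Mrpl12 was higher in Rybp-/- cells (45.5 and 49.3 to 58 and 54.1 CPM, log2 fold change 0.24, adjusted p = 0.00024) and lower after either knockdown (-0.55 for shRybp and -0.31 for shWdr5). Mrps12, a protein of the decoding centre, followed the same order, with 0.22 in Rybp-/- cells, -0.52 with shRybp and -0.14 with shWdr5, each at an adjusted p of 0.043 or below. Mrpl3, near the peptidyl transferase centre, was higher in Rybp-/- (0.25) and TF-AA mutation cells (0.25) and lower with shWdr5 (-0.21), while with shRybp its value was -0.07 (adjusted p = 0.37). Mrps16 was lower with shRybp (-0.45, adjusted p = 2.3e-05) and higher in TF-AA mutation cells (0.45, adjusted p = 0.0024). Mrps22 was lower with shRybp (-0.31), with shWdr5 (-0.38) and in the rTRS libraries labelled DOX (-0.42). Variants of human MRPS16 and MRPS22 are known causes of mitochondrial translation deficiency. Of the 3 paralogs, Mrps18b was higher with shWdr5 (0.26, adjusted p = 0.0031), where Mrps18a was lower (-0.33, adjusted p = 0.0027) and Mrps18c had a value of -0.17 (adjusted p = 0.097).

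Among the other genes of mitochondrial translation, more were lower than higher after either knockdown. The shares of all genes called lower and higher, given above, were 26.0 and 26.8% with shRybp and 31.5% each with shWdr5. After Rybp knockdown 15 of 21 genes of mitoribosome assembly and rRNA modification were lower and 0 higher (median -0.273). Also lower were 4 of 5 subunits with other names, 10 of 20 mitochondrial aminoacyl-tRNA synthetases (2 higher) and 4 of 9 translation factors. With shWdr5, 14 of 21 assembly genes were lower and 3 higher, and the one that fell most was Rpusd4, a pseudouridine synthase of the mitochondrial rRNA (33.3 and 33.4 to 15.7 and 16.9 CPM, log2 fold change -1.03, adjusted p = 3.4e-10). Of the 20 aminoacyl-tRNA synthetases 7 were lower and 5 higher with shWdr5 (35 and 25%, median -0.004), and of the 9 translation factors 5 were lower and 2 higher. All 5 subunits with other names were lower with shWdr5, led by Gadd45gip1 (-0.49, adjusted p = 1.7e-05). Gfm2, the factor that splits the mitochondrial ribosome after translation, fell with shRybp (-0.51, adjusted p = 8.6e-07) and with shWdr5 (-0.90, adjusted p = 2e-11). In the rTRS libraries labelled DOX, Ptcd3, a small-subunit protein with a name outside the rule, fell by 0.81 on the log2 scale (adjusted p = 1.4e-06), and 8 of 21 assembly genes were lower (38.1%, all genes 20.4%). In Rybp-/- cells 7 of 21 assembly genes were lower (33.3%, all genes 22.7%) and 1 higher, whereas more members were higher than lower. With TF-AA mutation no assembly gene was lower and 3 were higher, including Tfb1m, an rRNA methyltransferase of the mitochondrial small subunit (0.46, adjusted p = 0.0033), and this share (14.3%) was that of all genes (14.4%). The counts for these lists were made with TMM factors only.

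Most of the tested mRNAs that the mitochondrial ribosome translates were higher after Wdr5 knockdown. Of 12 mitochondrially encoded mRNAs tested, 9 were higher and 0 lower with shWdr5 (75%, all genes 31.5%, median log2 fold change 0.60), where 36 of 75 members were lower. In Rybp-/- cells 8 of 12 were higher and 0 lower (66.7%, all genes 22.8%), in TF-AA mutation cells 7 of 9 were higher (77.8%, all genes 14.4%), and with RYBP phase disruption 6 of 7 were lower (85.7%, all genes 17.0%). In the rTRS libraries labelled DOX 5 of 13 were higher and 2 lower (38.5 and 15.4%, all genes 23.0 and 20.4%), and with RYBP induction 3 of 12 were higher and 0 lower (25%, all genes 3.63%). After Rybp knockdown 3 of 12 were lower (25%, all genes 26.0%), including mt-Nd1 (1795 and 1621 to 1450 and 1460 CPM, -0.23, adjusted p = 0.00017). Other mitochondrially encoded mRNAs had few counts, such as mt-Co2 with shEV (3.69 and 2.89 CPM beside shWdr5). In the NTC libraries mt-Nd3 was at 0.978 and 0.838 CPM. Reads left unassigned to these genes were not examined. The number tested ranged from 7 to 13 of 13, so the shares do not cover the same genes. Of the 36 tested complex I Nduf genes, whose products need mitochondrially made partners, 14 were higher and 8 lower with shWdr5 (38.9 and 22.2%, all genes 31.5% each), and 0 were higher and 14 lower with shRybp (38.9% lower, all genes 26.0%). Of the 80 cytosolic ribosomal protein genes, 47 were lower and 32 higher with shWdr5 (58.8 and 40%), 58 lower and 4 higher with shRybp (72.5 and 5%), and 29 higher and 5 lower (36.2 and 6.25%, all genes 23.0 and 20.4%) in the rTRS libraries labelled DOX, where 26 members were lower and 3 higher. In those libraries 12 of 36 Nduf genes were lower and 3 higher (33.3 and 8.33%). All list counts in this paragraph were made with TMM factors only. With shRybp the list medians were -0.141 (Nduf) and -0.202 (cytosolic ribosomal protein genes). Library totals shifted the median of all genes in that comparison from 0.018 to 0.176, so the balance of these calls may depend on the scaling. Of the 8 tested regulators of nuclear genes for mitochondria, 2 were higher and 2 lower with shWdr5, 0 higher and 6 lower with shRybp, 0 higher and 3 lower in the rTRS libraries labelled DOX and 3 higher and 2 lower with RYBP phase disruption. In Rybp-/- cells 2 were higher and 3 lower (62.5% called, all genes 45.5%), in TF-AA mutation cells 1 was higher and 2 lower (37.5%, all genes 30.5%), and with RYBP induction 1 was lower (12.5%, all genes 2.39% lower). The called regulator that moved most in several comparisons was Myc, which fell with shWdr5 (67.9 and 74.2 to 29.2 and 30.9 CPM, log2 fold change -1.24, adjusted p = 2.9e-13), in the rTRS libraries labelled DOX (-1.11, adjusted p = 3.1e-06), with RYBP phase disruption (-1.11, adjusted p = 1.2e-09) and with RYBP induction (-0.48, adjusted p = 0.00022). Ppargc1b, a transcriptional coactivator, fell with shRybp (16.2 and 23.2 to 8.66 and 8.72 CPM, -1.18, adjusted p = 7.1e-07).

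The 75 members together made up 4089 and 4105 CPM in Rybp+/+ and 4209 and 4166 CPM in Rybp-/- cells. With shEV they made up 4615 and 4516 CPM and with shRybp 3935 and 3864 CPM, and in the other table with shEV 4347 and 4254 CPM and with shWdr5 3929 and 3975 CPM. They were at 4340 and 4101 CPM in the NTC libraries and at 3818 and 3586 CPM in those labelled DOX. In each of these the groups did not overlap. The values were 3679 and 3507 CPM in WT ESCs and 3822 and 3828 CPM in TF-AA mutation cells, which did not overlap either. With RYBP phase disruption (3477 and 3569 to 3385 and 3465 CPM) both treated libraries lay below both controls with TMM factors, while with library totals (3415 and 3498 to 3435 and 3532 CPM) the groups overlapped and the direction turned. With RYBP induction (3460 and 3430 to 3445 and 3455 CPM) the groups overlapped. With 2 libraries per group, an exact test of a sum cannot reach a small p, and none was run.

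**Figure D5:**
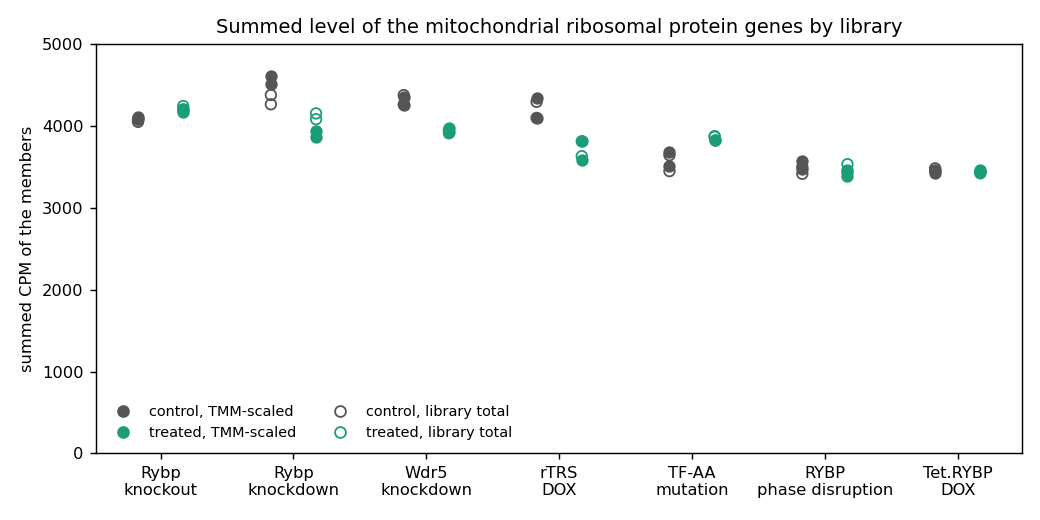
Summed CPM of the tested members in each library of the 7 tables, with control libraries in grey and treated libraries in green; filled points are scaled by TMM factors and open points by library totals. The shRybp libraries lie at 3935 and 3864 CPM with TMM factors and at 4152 and 4082 CPM with library totals, below the shEV libraries by either scaling.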

How the data were processed

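RNA-seq counts per gene were deposited in 7 tables. Per the labels and the submitters' processing notes, the authors trimmed reads with Trim Galore, aligned them to mm9 with STAR and counted them with HTSeq, with the strand setting not given in the sources used here. Peaks were called by the authors with MACS2 after Bowtie2 alignment to mm9, on merged samples, and the deposited lists give a fold enrichment and a −log10 q-value for each peak. The study states a false discovery rate of 0.01 (−log10 q of 2), but the deposited lists reach down to 1.0 in −log10 q for RING1B and 1.3 for the other antibodies, so all peaks were used and the stricter limit was tried.

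Each table was fitted on its own in edgeR 4.0.16 (R 4.3.3), with filterByExpr, TMM factors, a quasi-likelihood test of treated against control libraries and Benjamini-Hochberg adjustment over all genes tested. A member was called at an adjusted p under 0.05. Values are CPM on TMM-scaled library sizes (sums of marker genes are on unscaled library totals), fold changes are treated minus control on the log2 scale, and the standard error (SE) is the log2 fold change divided by the square root of the F statistic. Rows for reads without a feature (4.84 to 9.94% of reads on genes or without a feature) and ambiguous reads (2.89 to 3.57%) were left out of the 6 tables that hold them, and the RYBP induction table has no such rows. Levels per kilobase were divided by the summed exon length of the gene. A peak belongs to a member when it overlaps the window of 1 kb to each side of the annotated gene start (GENCODE on NCBIM37, the assembly of mm9), and the percentile is its rank by fold enrichment in its list. Promoter sequences were read from that genome. In simulated data, 91% or more of genes with a log2 change of 1 were recovered, and 56 to 89% of those with a change of 0.5. DESeq2 1.42.0, other scalings, other filters, the replicate number as a block and the omission of each library were tried.

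In each comparison, the 3 called members with the largest rise and the 3 with the largest fall were named. Also named were the members called in the most comparisons, 8 members with known roles and members with no peak. The called gene with the largest change was picked in each pathway list and comparison, but only some of these genes are printed. Left out were, for example, Lars2 (log2 fold change 1.02), Ndufa6 (0.86) and Rpl29 (-1.79) with shWdr5. So were Polg (0.93) in the rTRS libraries labelled DOX and Rpl10 (-1.93) with shRybp. Members named for the height or shift of a peak, or for their level, were chosen after their values were seen. The members and lists were chosen with earlier results of these data known.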

Additional observations from a re-analysis of the deposited data

Results flagged for a closer look

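STAT3 and RING1B peaks at the member starts were singled out as signals in lists that no comparison above uses. The lists come from cells labelled Tet.Rybp.Stat3 with and without DOX, whereas the RNA libraries are labelled rTRS. STAT3 peaks lay within 1 kb of 48 of 76 members with DOX (63.2%) and of 3 without (3.95%), while the STAT3 list as a whole grew from 2816 to 30663 peaks and the share of all protein-coding genes from 7.73 to 52.6%. Of the 15042 tested protein-coding genes, 71% had a STAT3 peak with DOX and 10.9% without, so the members' shares lay below those of tested genes. In Rybp+/+ and Rybp-/- cells STAT3 peaks lay at 5 and 1 of 76 members (6.58 and 1.32%, all protein-coding genes 6.29 and 5.43%, tested genes 8.58 and 7.57%).

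In the Tet.Rybp.Stat3 cells RING1B peaks lay at 49 of 76 members without DOX (64.5%) and at 19 with DOX (25%), compared with 50.9% and 38.5% of all protein-coding genes. Of the 15042 tested protein-coding genes 68.8% and 50.9% had a RING1B peak, so the members' shares lay below those of tested genes. In R1 cells RING1B peaks lay at 31 members with shEV (40.8%) and at 27 with shStat3 (35.5%), compared with 42% and 38.1% of all protein-coding genes. The shares of the tested genes were 56.2% and 50.7%. No replicate error can be given for these lists, and the decrease at the members was not tested against that at other genes.

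The summed level of the members was singled out because it moved in opposite directions in every library after the deletion and after the knockdown of Rybp. The log2 ratio of treated to control was 0.032 in Rybp-/- cells and -0.227 in shRybp cells with TMM factors, and 0.055 and -0.07 with library totals. The difference between them was not tested. The cell line, the means of depletion and the remaining Rybp level all differ between the 2 experiments and cannot be told apart.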

How the results depend on the processing

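For the 38 tested members named by a rule set before their values were seen, no called fold change turned its direction under an alternative. Genes of the other lists were not put through the alternatives. The counts of called members moved as follows. With DESeq2, 16 members were called in the Rybp knockout, 7 with TF-AA mutation and 2 with RYBP phase disruption. Without a filter on low counts there were 17 in the knockout and 3 with phase disruption. Beyond 0.5 on the log2 scale 0 were called in the knockout, 7 in the Rybp knockdown, 10 in the Wdr5 knockdown, 10 in the rTRS line, 4 with TF-AA mutation and 1 with phase disruption. With library totals, RYBP induction had 1 call. The replicate numbers are shared between groups, but over all genes the differences between replicates of the 2 groups were hardly correlated (-0.021 to 0.074). In the rTRS line, where replicate 1 lay above replicate 2 in both groups for the summed level, the block raised all calls from 7070 to 8559 and the members' from 29 to 43. With the replicate number as a block 23 members were called with TF-AA mutation (21 higher, when 2629 of all 14456 genes were) and 1 with RYBP induction, and the block gave 29, 53, 48, 43 and 14 calls in the knockout, the Rybp knockdown, the Wdr5 knockdown, the rTRS line and phase disruption. Leaving out each replicate in turn gave 13 to 27 calls in the knockout, 41 to 50 in the Rybp knockdown, 37 to 45 in the Wdr5 knockdown, 25 to 30 in the rTRS line, 6 to 21 with TF-AA mutation, 3 to 10 with phase disruption and 0 to 3 with RYBP induction. The log2 ratio of the summed level with library totals, an alternative chosen after seeing the data, was 0.055 in the knockout, -0.07 in the Rybp knockdown, 0.127 with TF-AA mutation, 0.011 with phase disruption (where TMM factors gave a negative value) and -0.016 with RYBP induction. The number of members with a peak stayed at 62 to 63 (WDR5, Rybp+/+), 63 to 66 (WDR5, Rybp-/-) and 74 to 76 (H3K4me3) over all windows and limits tried. The causes of these shifts were not tested. Changes below about 0.5 on the log2 scale were within reach of part of the tests only, and for Mrpl53 the counts allow no statement.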

Other observations

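The Rybp knockout and the Rybp knockdown share no samples. Of the 22 members higher in Rybp-/- cells, 14 were lower in shRybp cells (63.6%) and 0 higher, whereas of 3681 genes higher in Rybp-/- cells 21.2% were lower and 46.3% higher with shRybp. Of the 7 members lower in Rybp-/- cells, 5 were lower in shRybp cells (71.4%, 40.5% of 3787 genes). Of the 46 members not called in the knockout, 31 were lower in shRybp cells (67.4%). The differences between these shares were not tested, and the counts rest on TMM factors (with library totals 25 members were lower and 12 higher with shRybp, in place of 50 and 1). The 2 experiments differ in cell line and in the remaining level of Rybp.

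H3K27ac is a mark of active promoters and enhancers. In Rybp+/+ cells the strongest H3K27ac peak of the 74 members with a peak had a median fold enrichment of 17.9 (92.1st percentile of its list), and in Rybp-/- cells one of 14.7 (91.7th percentile). Over 10444 protein-coding genes with a peak in both genotypes the medians were 14.5-fold (89.2nd percentile) and 12.8-fold (90th percentile). The highest was that of Mrps18b in Rybp+/+ cells (56.3-fold, 99.9th percentile), which was at 26.3-fold (97.4th percentile) in Rybp-/- cells. At Mrps6 the H3K27ac peak went from 3.59-fold (35th percentile) to 6.85-fold (78.9th percentile) with RYBP loss, the same direction as its WDR5 and H3K4me3 peaks.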
